A study of Mus musculus with 16 samples.

Results

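The genes described are the variable segments of the mouse immunoglobulin heavy chain, named Ighv. They were chosen by gene symbol: every row of the array whose single platform symbol starts with Ighv was taken, with the highest-mean row kept for each gene. This gave 113 members of 30702 genes tested, each with 1 row, so the choice by mean level decided nothing. The family was put forward with earlier results of these data known, and its counts are therefore descriptions and not independent evidence. All 113 symbols matched the RefSeq annotation on chromosome 12, where 110 are listed as variable segments and 3 as pseudogenes. RefSeq lists 183 Ighv genes in all. Ighv1-62-2 and Ighv1-71 held identical values on every array, which leaves 112 distinct measurements, and 61 members belong to subgroup 1, the first of 15 subgroups by sequence. Variable segments resemble each other closely, and how much signal a row takes from a neighbour was not tested.

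A heavy-chain variable segment is joined to a diversity and a joining segment by the RAG recombinase while a B cell develops, so each B cell clone transcribes mainly a single rearranged segment. Germline segments that have not been rearranged give little stable transcript, and the bulk of Ighv message in a tissue comes from plasma cells, which devote much of their RNA to antibody. In the colon most plasma cells lie in the lamina propria and secrete IgA, which is held together by the joining chain Jchain and carried across the epithelium by the receptor Pigr. The signal of a segment in bulk tissue thus depends on which clones are present, how many plasma cells they hold and how much RNA each makes. Fewer cells of a type and less RNA per cell cannot be told apart in these samples.

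RNA from the colon mucosa of male C57BL/6J mice was measured on 16 microarrays, whose number limits the precision. Every mouse was homozygous for a floxed Mcc allele (Mccf/f). The knockout (KO) mice also carried the Villin-cre transgene, which drives Cre in intestinal epithelium, and the mice called wild type (WT) are floxed siblings without Cre. Mice were fed from 6 weeks of age for 10 weeks on control feed or on feed with 320 ppm of sulindac, a nonsteroidal anti-inflammatory drug. There were 6 WT control arrays, 3 WT sulindac arrays, 3 KO control arrays and 4 KO sulindac arrays. On sulindac, mucosa was taken only where the proximal colon was inflamed, and these samples are called lesions here; control mucosa was normal tissue from the matching region. Without uninflamed tissue on sulindac, the drug and the choice of inflamed tissue cannot be told apart. The labels do not say that each array is a separate mouse, so p-values measure the spread between these samples.

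Values are log2 levels, and a difference of 1 is a change by a factor of 2. A gene is called where limma's two-sided test gives a Benjamini-Hochberg adjusted p under 0.05 over all 30702 genes. The targeted gene Mcc lay between 7.06 and 7.40 on the log2 scale in the 9 WT arrays and between 6.39 and 6.71 in the 7 KO arrays, without overlap. Arrays of a group correlated at 0.980 to 0.991 over all rows. The numbers in the sample descriptions form a lower and a higher series: all lesions come from the lower one, all KO controls from the higher one, and WT controls from both. Among KO arrays alone, diet and number series cannot be told apart; a fit with the series as a covariate, which takes its effect from the WT controls, called 60 members higher in WT lesions, beside 6.59% of all genes, and 0 in KO lesions, beside 4.51%. Of the 113 members, 87 had a mean above the median of the array medians and 26 did not.

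In WT colon the Ighv genes rose broadly in the lesions. Of the 113 members, 64 were called higher and 0 lower in WT lesions against WT controls, where 6.98% of all genes were called higher. A difference above 0 was measured for 111 members, and for 73 it exceeded 1 on the log2 scale, beside 35.4% and 2.05% of all genes. The median difference of the members was 1.35, a 2.55-fold higher level, beside -0.06 over all genes. The arrays of the WT lesions lay wholly above those of the WT controls for 60 members, of which 50 were called, while 8.15% of all genes did so.

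**Figure D1:**
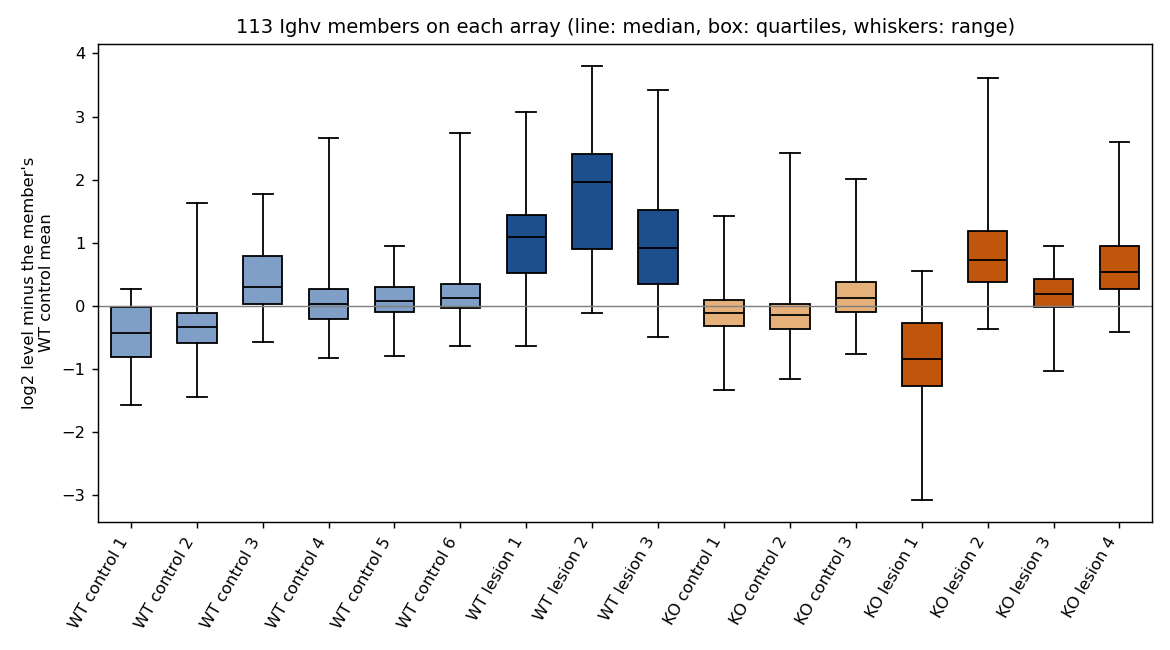
Each box shows 113 Ighv members on 1 array as the log2 level minus that member's mean in WT controls (vertical axis), with the median as a line, the quartiles as the box and the full range as whiskers. The medians are 1.09, 1.97 and 0.92 in the WT lesions, and range from -0.83 in KO lesion 1 to 0.73 in KO lesion 2.

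The mean log2 level over the 113 members was 5.37, 5.45, 6.22, 5.92, 5.92 and 5.99 in WT controls 1 to 6. It was 6.89, 7.48 and 6.76 in WT lesions 1 to 3. Every WT lesion lay above every WT control, and the group means were 7.04 ± 0.39 (SD, n = 3) and 5.81 ± 0.33 (SD, n = 6). WT lesion 2 stood highest of the 16 arrays for 72 members, and WT lesion 1 for another 19.

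The count of calls leaned on WT lesion 2. Without that array 14 members were called higher, all of them among the 64, beside 5.17% of all genes, and the median difference was 1.05 on the log2 scale. Without KO lesion 1, which enters only through the shared estimate of spread, 82 members were called, beside 7.50% of all genes. Within the lower number series alone, 24 members were called higher in WT lesions, beside 5.16% of all genes.

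Ighv1-81, a segment of subgroup 1, showed the largest fitted rise among the called members. Its log2 level in WT controls had a lowest value of 4.17, a median of 5.08 and a highest of 5.83, and in WT lesions 1 to 3 it was 7.71, 7.05 and 8.04. All 3 lesions were above all 6 controls, with a log2 difference of 2.57 (SE 0.52, 5.94-fold, limma adjusted p = 0.0028). In KO mice the same gene stood at 4.35, 6.31 and 5.02 in controls, and at 3.81, 6.36, 5.09 and 5.05 in lesions. The KO groups overlapped, with a difference of -0.15 (SE 0.56, limma adjusted p = 0.90).

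Ighv3-4, a segment of subgroup 3, had a low signal in every other group and rose in the WT lesions. Its log2 level lay between 3.65 and 3.93 in WT controls and was 5.29, 7.60 and 5.27 in WT lesions. The difference was 2.26 (SE 0.35, 4.81-fold, limma adjusted p = 0.000365), and the groups did not overlap. KO controls measured 3.89, 3.91 and 3.77 and KO lesions 3.79, 4.22, 4.10 and 3.89, all under the lowest WT lesion. WT lesion 2 exceeded the next array by 2.30 for this gene.

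Ighv1-76 combined a rise in WT lesions with a high value in 1 KO control. It measured 8.64, 8.36 and 7.26 in WT lesions against 5.32 to 6.83 in WT controls, a log2 difference of 2.21 (SE 0.45, limma adjusted p = 0.0031). KO control 2 stood at 8.30, beside 5.91 and 6.89 in the other KO controls, inside the range of the WT lesions. The remaining called members named by size of change were Ighv1-78, Ighv1-4, Ighv6-3, Ighv1-26 and Ighv1-43, with differences from 2.18 to 2.39 and limma adjusted p from 0.0069 to 0.018. Ighv1-78, Ighv1-26 and Ighv1-43 had no overlap between WT lesions and WT controls, whereas Ighv1-4 and Ighv6-3 did overlap.

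The rise differed in size between subgroups. In subgroup 1, 42 of 61 members were called higher, with a median log2 difference of 1.50. All 4 members of subgroup 14 were called, with a median of 1.92; Ighv14-1 rose from 5.61 ± 0.51 (SD, n = 6) to 7.72 ± 0.28 (SD, n = 3), a difference of 2.10 (SE 0.40, limma adjusted p = 0.0017). In subgroup 2, 6 of 8 members were called at a smaller median of 0.62. Subgroup 5 had 2 of 9 called at a median of 1.08, subgroup 8 had 3 of 8 at 1.09 and subgroup 3 had 3 of 6 at 1.05. None of the members of subgroups 4, 10, 12, 13, 15 and 16, which hold 1 or 2 members each, was called. Of these 8 members 1 had an unadjusted p under 0.05, as did 27.9% of all genes. Of the 3 pseudogenes, Ighv1-30 was called higher by 1.66 (limma adjusted p = 0.029), while Ighv1-2 and Ighv2-1 were not called.

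The KO lesions differed from each other in subgroup 14. For its 4 members, KO lesion 4 was the highest KO array, at 7.26 for Ighv14-1, 7.55 for Ighv14-2, 5.27 for Ighv14-3 and 7.20 for Ighv14-4. KO lesion 1 measured 4.73, 4.57, 3.96 and 4.64 for the same genes, and the KO differences of 0.54, 0.62, 0.46 and 0.40 were not called. Ighv14-2 in KO lesion 4 lay inside the range of the WT lesions, which was 6.72 to 7.89.

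In subgroup 8 a different KO array was high. Ighv8-5 stood at 6.75 in KO lesion 2 and at 3.56, 4.50 and 4.40 in the other KO lesions. In WT lesions it was 5.50, 7.18 and 4.96, a called rise of 1.67 (SE 0.54, limma adjusted p = 0.048). Ighv8-6 measured 7.22, 6.77 and 6.32 in WT lesions and 4.79, 6.55, 6.14 and 5.67 in KO lesions; it rose in WT by 1.14 (SE 0.31, limma adjusted p = 0.021) and differed in KO by 0.74 (SE 0.34, limma adjusted p = 0.15). Subgroups 14 and 8 and the genes named for them were described after their values were seen.

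**Figure D2:**
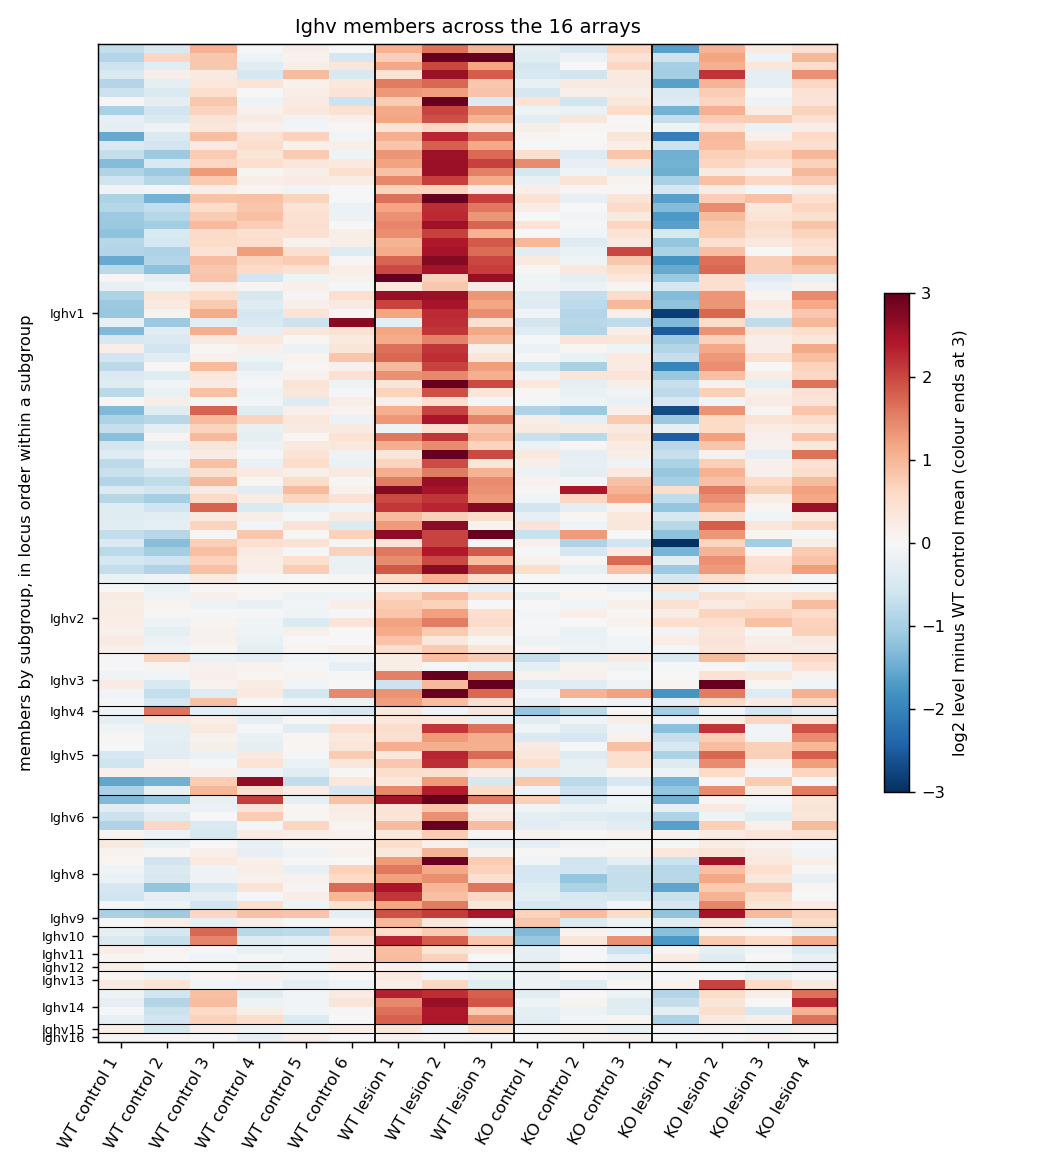
Rows are the 113 members grouped by subgroup, columns are the 16 arrays, and colour gives the log2 level minus the member's WT control mean, ending at 3 in both directions. WT lesion 2 is the highest array for 72 members, KO lesion 1 is the lowest for 69, and single bright cells mark members with 1 array far above the rest.

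In KO colon the Ighv genes showed few changes. In KO lesions against KO controls, 2 of 113 members, Ighv2-4 and Ighv2-5, were called higher and 0 lower, while 8.98% of all genes were called higher. The median difference of the members was 0.19 on the log2 scale, beside 0.01 over all genes. A difference above 0 was measured for 87 members and for 51.3% of all genes. The KO lesions lay wholly above the KO controls for 6 members, and 12.7% of all genes did so.

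KO lesion 1 stood apart from the other KO lesions. The mean log2 level over the members was 4.98, 6.63, 6.00 and 6.43 in lesions 1 to 4 of KO mice, beside 5.71, 5.66 and 5.99 in their 3 controls. KO lesion 1 was below every WT control for 74 members and the lowest of the 16 arrays for 69. With it the KO lesions averaged 6.01 ± 0.74 (SD, n = 4), and without it 6.36 ± 0.32 (SD, n = 3). The median difference of the members in KO then rose to 0.51. Of the 113 members, 10 were called higher against 7.68% of all genes, so that count lay near the share of all genes. The arrays of 37 members did not overlap, against 13.8% of all genes. Those 10 members came from 5 subgroups and included Ighv2-4 and Ighv2-5; the largest differences among them were 1.52 for Ighv5-4 (SE 0.49, limma adjusted p = 0.043) and 1.22 for Ighv8-9 (SE 0.33, limma adjusted p = 0.019).

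Ighv2-4 and Ighv2-5 are segments of subgroup 2 with little spread between arrays. The 4 KO lesions measured 7.33, 7.78, 7.81 and 7.70 for Ighv2-4, against 7.04, 7.32 and 7.18 among their controls. KO lesion 1 stood only just above KO control 2, so the groups did not overlap, and the difference was 0.47 (SE 0.15, limma adjusted p = 0.031). In WT mice it was 6.97 to 7.34 in controls and 7.95, 8.34 and 7.62 in lesions, a difference of 0.85 (SE 0.14, limma adjusted p = 0.000465).

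For Ighv2-5 the KO controls stood at 7.27, 7.31 and 7.45, below the lesions at 7.82, 7.81, 8.21 and 8.02. All KO lesions were higher, by 0.62 (SE 0.20, limma adjusted p = 0.038), and KO lesion 1 was not low for this gene. In WT mice Ighv2-5 rose by 1.11 (SE 0.19, limma adjusted p = 0.000693), from 6.92 to 7.73 in controls to 8.54, 8.86 and 7.90 in lesions. Ighv2-6-8, the member with the next lowest p in KO, differed by 0.40 (SE 0.14, limma adjusted p = 0.060) in KO and by 0.43 (SE 0.13, limma adjusted p = 0.038) in WT. The KO calls did not hold when KO control 1, KO control 3, KO lesion 3 or KO lesion 4 was left out, each of which gave 0 calls, and only Ighv2-4 was left without KO control 2. Without KO lesion 2, Ighv2-4 was lost and Ighv2-5 and Ighv2-3 were called.

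**Figure D3:**
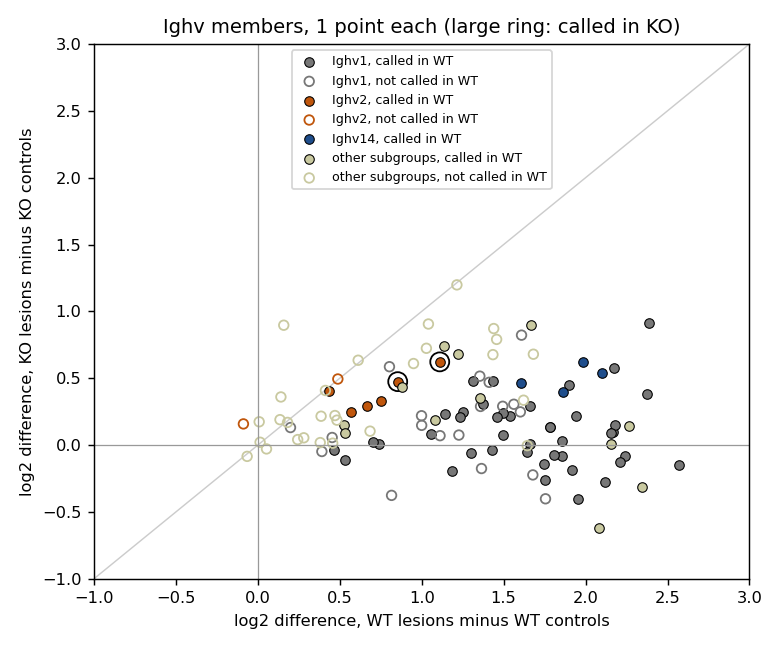
Each point is 1 Ighv member, with its log2 difference in WT (lesions minus controls, horizontal) and in KO (vertical); filled points were called in WT and the large rings mark Ighv2-4 and Ighv2-5, called in KO. Points spread along the horizontal axis to 2.57 for Ighv1-81, while the highest KO difference is 1.20 for Ighv3-5, which was called in neither genotype.

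On control feed the genotypes were close. None of the 113 members was called between KO and WT controls by limma, and 0.0% of all genes were called. An unadjusted p under 0.05 was found for 2 members and for 2.09% of all genes. The median difference was -0.03 on the log2 scale. The 3 members with the lowest p were Ighv1-76 at 1.15 (SE 0.45), Ighv8-9 at -0.79 (SE 0.34) and Ighv11-1 at -0.31 (SE 0.15), each with a limma adjusted p of 1.

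Between the lesions, Ighv levels were lower in KO than in WT. The difference was below 0 for 108 of 113 members, with a median of -0.99 on the log2 scale beside 0.04 over all genes, and 55 members differed by more than 1 downward, as did 0.355% of all genes. The arrays of the KO lesions lay wholly below the WT lesions for 34 members, beside 3.92% of all genes. Without KO lesion 1 the median was -0.66, and 34 members again did not overlap, beside 5.20% of all genes.

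Few single members passed the test of that difference. Ighv1-47 and Ighv3-4 were called lower, of 113 members, with 0.0586% of all genes called lower. Both are among the 26 members whose mean was not above the median of the array medians. An unadjusted p under 0.05 was found for 70 members, all lower, and for 13.4% of all genes in either direction. Ighv1-47 measured 7.68, 5.29 and 7.21 in WT lesions and 3.50, 5.10, 4.22 and 4.39 in KO lesions, a difference of -2.42 (SE 0.47, limma adjusted p = 0.046). Ighv3-4, whose values are given above, differed by -2.06 (SE 0.38, limma adjusted p = 0.041), and Ighv1-81 by -2.52 (SE 0.56, limma adjusted p = 0.073). Neither call held with the replicate number as a block, with 0 of 113 called. Whether same-numbered lesions form pairs is not known. Leaving out 1 array gave 0 calls for every array but 3. Without WT lesion 2 both calls were kept, and without KO lesion 3 they were 2 of 7 members called lower, where 1009 genes in all were lower. Without KO lesion 4 both were lost and Ighv14-1 and Ighv14-4 were called instead.

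The change on sulindac itself was also compared between genotypes. The KO difference minus the WT difference had a median of -0.97 over the members and 0.06 over all genes. It was below 0 for 105 members, while it was above 0 for 61.9% of all genes. In this interaction no member was called by limma, and 0.00326% of all genes were called. An unadjusted p under 0.05 was found for 44 members, all lower, and for 11.1% of all genes in either direction. Ighv1-81 had an interaction of -2.72 (SE 0.76, limma adjusted p = 0.40) and Ighv3-4 of -2.12 (SE 0.52, limma adjusted p = 0.39). Without WT lesion 2, Ighv3-4 alone was called. A smaller rise of single segments in KO is thus not shown by a test that holds over all genes.

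Ighv levels varied more between arrays of a group than most genes did. The within-group SD pooled over the 4 groups had a median of 0.66 over the members and 0.14 over all genes, and 65.5% of members exceeded 0.5 against 2.21% of genes. In the KO lesions the median SD of the members was 0.84, and 0.38 without KO lesion 1. After subtraction of group means, pairs of members of the same subgroup correlated over the 16 arrays with a median r of 0.73, and pairs of different subgroups with 0.38. Of the 1957 pairs of the same subgroup, 1830 lay within subgroup 1, so the first value mainly describes that subgroup. These correlations are a description: all pairs share the same 16 arrays, and members of a subgroup also resemble each other in sequence.

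Some segments were high on 1 or 2 arrays in different groups. Ighv3-5 was 7.70 in WT lesion 3 and 8.02 in KO lesion 2, while 13 of the other 14 arrays lay between 3.78 and 4.66 and WT lesion 2 measured 5.38. Ighv1-54 reached 6.98 in WT control 6, against 3.14 to 4.03 in the other WT controls, and 6.47 in WT lesion 2. Ighv5-16 stood at 8.63 in WT control 4, with a lowest value of 4.41 in that group and lesions at 6.33, 7.26 and 5.49. These genes had no call in any comparison. The KO lesion mean of Ighv3-5 and the WT control mean of Ighv1-54 lean on 1 array. Ighv5-16 was highest in WT control 4 by 1.37, and its other arrays were also spread, from 4.41 to 7.26.

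**Figure D4:**
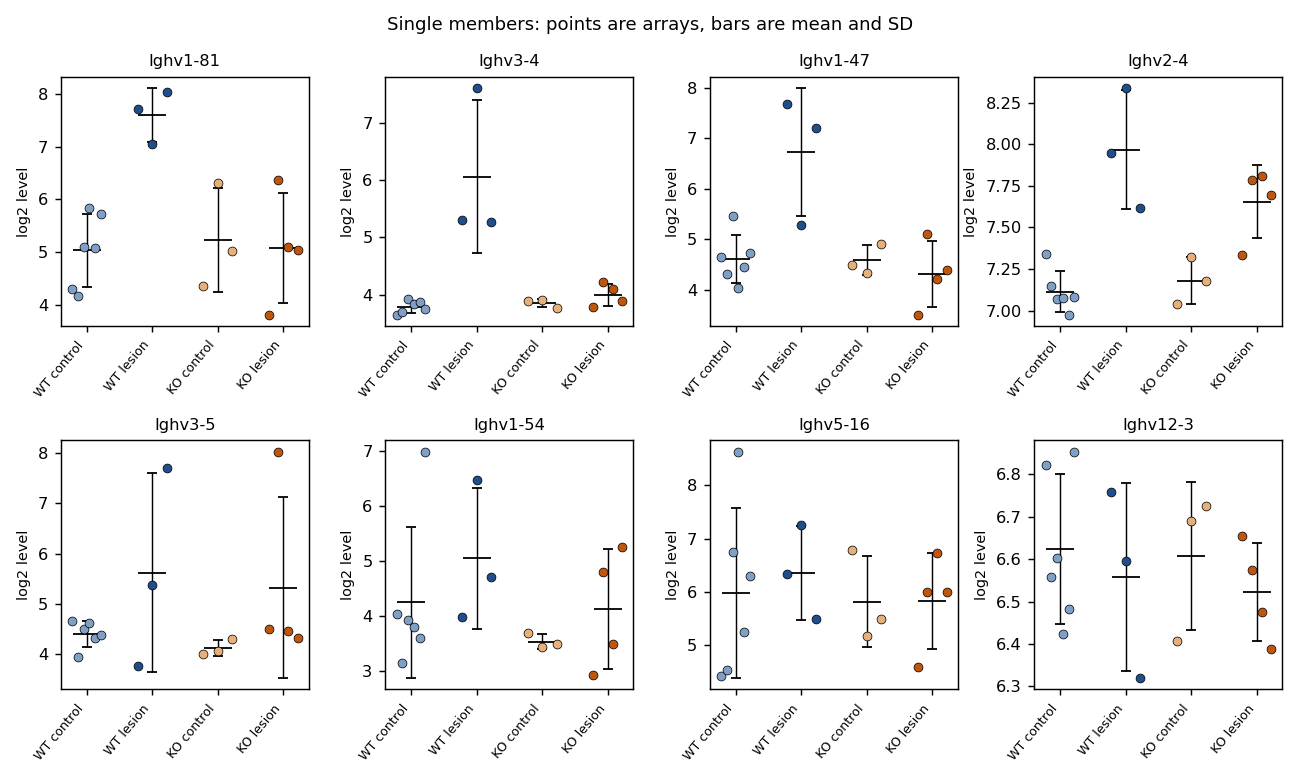
Points are arrays in 4 groups (WT control n = 6, WT lesion n = 3, KO control n = 3, KO lesion n = 4), bars are mean and SD, and the vertical axis is the log2 level, with its own range per panel. Ighv1-81 and Ighv3-4 are high in all 3 WT lesions and Ighv1-47 in 2 of them, and Ighv2-4 is higher in both lesion groups. Ighv3-5 and Ighv1-54 have 1 or 2 high arrays that do not follow the groups. Ighv5-16 is highest in WT control 4 and spread over the other arrays, and Ighv12-3 stays between 6.32 and 6.85.

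Other segments showed little difference. Ighv12-3 lay between 6.32 and 6.85 on all 16 arrays and differed by -0.07 (SE 0.12) in WT and -0.08 (SE 0.13) in KO. Ighv2-1 and Ighv3-3 differed by -0.09 (SE 0.10) and 0.01 (SE 0.12) in WT, and none of the 3 was called. Ighv2-9, also among the 4 bright members with the smallest spread, did rise in WT, by 0.57 (SE 0.12, limma adjusted p = 0.0032). The 6 members named for their mean signal were Ighv1-2, Ighv1-56, Ighv1-11, Ighv1-5, Ighv1-34 and Ighv1-14, and 5 of them were called higher in WT, by 1.14 to 1.92. Ighv1-2 was 9.79 to 11.53 in WT controls and 11.53, 12.13 and 11.51 in WT lesions, and was not called at a difference of 1.23 (SE 0.47, limma adjusted p = 0.098).

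The kappa light-chain variable genes encode chains that pair with these heavy chains. Of 86 Igkv genes, 24 were called higher in WT lesions with a median log2 difference of 1.07, beside 6.98% of all genes called. In KO lesions 1 was called higher with a median of 0.07, beside 8.98% of all genes. Between the lesions their median was -0.85, with 1 called lower in KO, beside 0.0586% of all genes.

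For the 4 diversity and joining segments measured, 0 were called in WT lesions, in KO lesions or between the lesions. Over all genes, 6.98% were called higher and 8.36% lower in WT lesions, and 8.98% higher and 12.1% lower in KO lesions. Between the lesions 0.248% were called higher and 0.0586% lower, so 0 calls among 4 genes lay near these shares. The median log2 difference of the 4 segments was -0.31 in WT, 0.05 in KO and 0.10 between the lesions (KO minus WT). In WT and between the lesions these medians were opposite in sign to those of the Ighv members, which is a description of 4 genes without a call. Of the genes that complete an antibody, 4 of 8 heavy-chain constant genes had a single-symbol row. Ighg1, the IgG1 constant region, was 5.54 to 5.96 in WT controls and 6.51, 6.41 and 6.27 in WT lesions, a called rise of 0.65 (SE 0.11, limma adjusted p = 0.000577). In KO it differed by 0.31 (SE 0.11, limma adjusted p = 0.067), with lesions at 5.90, 6.20, 6.28 and 6.02 and controls at 5.76, 5.92 and 5.68. Ighg2b differed by 0.73 (SE 0.33) in WT and 0.25 (SE 0.35) in KO and Ighm by 0.27 (SE 0.22) and -0.54 (SE 0.24), none called. Ighe, the IgE constant region, was called higher in KO lesions alone, by 0.24 (SE 0.07, limma adjusted p = 0.033). The test between genotypes of that difference was not called. Every array measured Ighe between 4.47 and 4.82, below the median of the array medians at 4.95, so its signal was near the floor. Its KO lesions, at 4.70 to 4.82, overlapped the WT controls, at 4.53 to 4.79, while the KO controls lay at 4.47 to 4.57. Igha, the IgA constant region, was not analysed here.

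The joining chain was also low in KO lesion 1. The WT lesions measured 7.85, 8.59 and 7.66 for Jchain, against 6.15 to 7.24 among their controls. For KO mice the lesions stood at 4.58, 7.57, 6.67 and 7.29, and their controls at 6.75, 6.24 and 7.46. All WT lesions lay above all WT controls, but the difference of 1.11 (SE 0.50) was not called (limma adjusted p = 0.16). KO lesion 1 was the lowest array for Jchain as for 69 Ighv members. It was also lowest for Pigr, the IgA transport receptor of the epithelium, at 11.1 beside 11.9 to 12.4 in the other KO lesions, and for Ccl28, a chemokine that draws IgA plasma cells, at 7.82 beside 9.07 to 9.31. Both were called lower in KO lesions, Pigr by -0.73 (SE 0.20, limma adjusted p = 0.018) and Ccl28 by -1.09 (SE 0.28, limma adjusted p = 0.0099). The part of these values in the low Ighv level of that array was not tested.

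**Figure D5:**
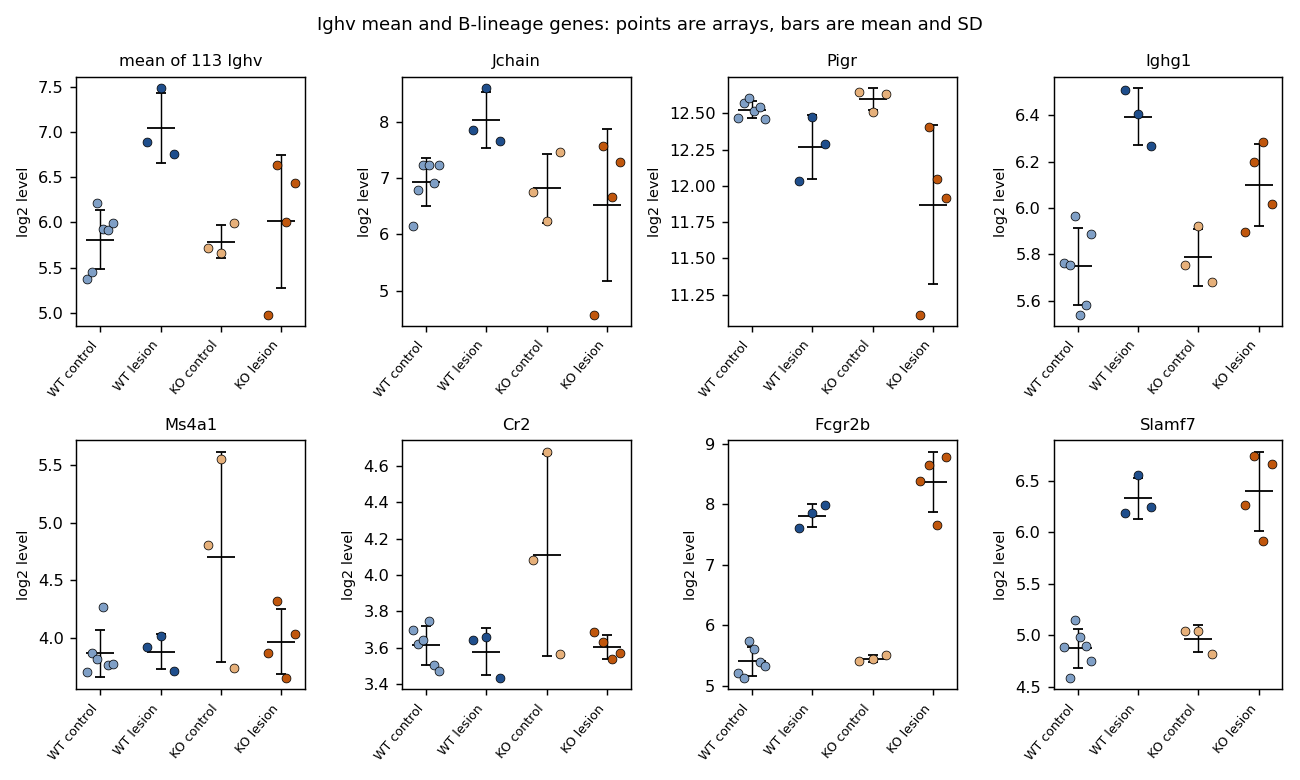
Points are arrays in the 4 groups, bars are mean and SD, and the vertical axis is the log2 level, with its own range per panel. Jchain and Pigr are lowest in KO lesion 1, Ms4a1 and Cr2 are high in KO controls 1 and 2, and Fcgr2b and Slamf7 are higher in both lesion groups.

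Of 15 B cell genes measured, 1, the signalling adaptor Blnk, was called higher in WT lesions, and in KO lesions Blnk was called higher and 1 gene lower. These counts are near the shares of all genes called higher, 6.98% in WT and 8.98% in KO. Ms4a1, the B cell surface protein CD20, was 4.81 and 5.56 in KO controls 1 and 2 and between 3.65 and 4.32 on the other 14 arrays. Cr2, complement receptor 2 of B cells, was likewise 4.08 and 4.68 there and at most 3.75 elsewhere, and was called lower in KO lesions by -0.50 (SE 0.17, limma adjusted p = 0.0496). Mean Ighv levels on those 2 arrays, 5.71 and 5.66, lay within the range of WT controls. With both arrays left out, an alternative chosen after seeing the data, 55 members were called higher in WT, beside 6.76% of all genes, and 0 in KO, beside 5.25%.

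Plasma cell genes gave a mixed picture. Of 15, 3 were called higher and 2 lower in WT lesions, beside 6.98% and 8.36% of all genes. In KO lesions 4 were called higher and 3 lower, beside 8.98% and 12.1%. Prdm1, the regulator that drives plasma cell differentiation and is also made by T cells and epithelium, rose by 1.54 (SE 0.19) in WT and 2.26 (SE 0.21) in KO. Slamf7, a receptor of plasma cells and other immune cells, rose by 1.46 (SE 0.16) and 1.43 (SE 0.17). Txndc5, a folding enzyme of the secretory pathway, fell by 0.64 (SE 0.18) in WT and by 1.17 (SE 0.19) in KO. Xbp1, a regulator of secretory cells, fell by 0.34 (SE 0.09) in KO. Pou2af1 was called higher in WT lesions alone, by 0.29 (SE 0.08, limma adjusted p = 0.025), without overlap. It differed by -0.10 (SE 0.09) in KO and by -0.23 (SE 0.09) between the lesions (KO minus WT), neither called. Ccr10 was called lower in WT, Fkbp11 lower in KO, and Irf4 and Sdc1 higher in KO. Tnfrsf17, the plasma cell survival receptor BCMA, differed by 0.03 (SE 0.09) in WT and 0.05 (SE 0.09) in KO.

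Several lists of other immune genes held more calls. All 10 macrophage and neutrophil markers and 5 of 7 Fc receptors, which bind antibody, were called higher in WT and in KO lesions. Over all genes, 6.98% were called higher and 8.36% lower in WT lesions, and 8.98% higher and 12.1% lower in KO lesions. The inhibitory receptor Fcgr2b rose by 2.41 (SE 0.20) in WT and 2.92 (SE 0.21) in KO. Of 10 genes for lymphoid tissue and for survival or homing signals, 2 were called higher and 2 lower in WT lesions, and 2 higher and 4 lower in KO lesions. The 2 higher ones were the same in both: Tnfsf13b, the B cell survival factor BAFF, rose by 1.27 (SE 0.24) and 1.15 (SE 0.26), and Il6, a cytokine that supports plasma cells, by 2.07 (SE 0.46) and 3.17 (SE 0.50). Chst4 and Ccl25, a sulfotransferase and a homing chemokine, were called lower in both genotypes, and Cxcl13 and Ccl28, both chemokines, in KO lesions. Of 9 T cell genes 4 were called higher in WT and 7 in KO, and of 9 epithelial genes 1 was higher and 2 lower in WT and 5 higher and 1 lower in KO. The mean log2 level of the epithelial markers per array ranged from 11.7 to 11.8 in WT controls, 11.3 to 11.7 in WT lesions, 11.7 to 11.8 in KO controls and 11.4 to 11.8 in KO lesions. The part of these other cells in the Ighv differences was not tested. Rag2 and Dntt, which act in recombination in bone marrow, stayed between 3.69 and 4.20 and were called in neither genotype.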

How the data were processed

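Per the labels' protocols, total RNA was extracted with a Qiagen RNeasy kit and biotin-labelled cDNA was hybridised; per the submitters' processing notes, the log2 values were made by RMA in Affymetrix Power Tools 1.16.1. The deposited log2 values were used as given. The genome build is not given in the sources used here. Coordinates are therefore left out. Of 72688 rows, 32750 are listed in GEO's platform annotation; 31258 have 1 symbol, 1492 several. Symbols were updated through RefSeq (GRCm38.p6), leaving 30702 genes, each by its highest-mean row. Rows naming several Ighv genes, and 4 rows renamed to Ighv, are not members.

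One limma 3.58.1 model (R 4.3.3) with 4 group means over 16 arrays was fitted, followed by eBayes and Benjamini-Hochberg adjustment over all genes, for 5 comparisons. The code was tested on simulated data. The members and lists were chosen with earlier results of these data known. Named members were set by rule: called members by size (up to 8 per comparison, or the 3 lowest p), highest mean, largest and smallest spread, and arrays standing apart; other genes come from the lists, and a few further members (those of subgroups 8 and 14, Ighv5-4 and Ighv1-30) were chosen after their values were seen. Deviations from group means of same-numbered lesions of both genotypes correlated at 0.465, 0.296 and 0.540. For same-numbered WT lesions and WT controls the correlations were 0.348, 0.171 and 0.0968. For KO lesions and KO controls, and for the controls of both genotypes, they were negative. Arrays with different numbers were not compared in this way, so pairs are not shown. Alternatives were array omission, replicate block, number series, dim-gene filter, array weights, scaling and row choice. No sequence is shown, since the tables used held none for these genes.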

Additional observations from a re-analysis of the deposited data

Results flagged for a closer look

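In groups of 4 to 6 arrays, the highest or lowest array stood far from its neighbours for 16 of 226 member-by-group sets, where chance gives about 1 in 20. Of these, 9 were in KO lesions, 7 of them a low KO lesion 1, and 7 were in WT controls.

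Among the named members, KO lesion 1 was low for Ighv1-34 at 6.23, for Ighv1-26 at 5.26 and for Ighv1-19 at 4.96. Ighv3-5 was high in KO lesion 2 at 8.02. In WT controls, Ighv1-54 was high in array 6 at 6.98, Ighv1-78 was high in array 3 at 6.04 and Ighv2-1 was low in array 2 at 6.34. Among the other genes named, Ccl28 was low in KO lesion 1 at 7.82, Ighg2b was high in WT control 3 at 6.40 and Ms4a1 was high in WT control 4 at 4.27.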

How the results depend on the processing

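The median differences of the members moved by less than 0.52 on the log2 scale under every alternative run. This is the SD of the members' median level per array, pooled over the 4 groups. It is larger than the KO median difference of 0.19, so it cannot show that the KO difference is stable. In WT they ranged from 1.05 without WT lesion 2 to 1.53 with the replicate block. In KO they ranged from 0.04 without KO lesion 4 to 0.51 without KO lesion 1. The counts of calls were less stable, and the cause was not tested. For WT lesions the count of 64 ranged from 14 to 82 when single arrays were left out, beside 5.17% and 7.50% of all genes called higher. It was 24 within the lower number series, beside 5.16%, and 59 with the replicate block, beside 5.47%. For KO lesions the count of 2 ranged from 0 to 10 when single arrays were left out, and the 10 lay near the share of all genes called higher, 7.68%. It was 0 with the replicate block, 0 with number series as a covariate and 0 as a random block, beside 8.21%, 4.51% and 7.85% of all genes. With array weights it was 15, beside 11.7% of all genes, so that count lay near the share of all genes. For the lesions between genotypes the count of 2 ranged from 0 to 7 when single arrays were left out. It was 0 with the replicate block, 0 with number series as a covariate, 0 within the lower number series and 0 with only the groups compared. It was 1 with trend and robust eBayes, 5 with array weights and 0 with arrays shifted to 1 median. Over all genes, 18 were called lower in the main fit and 265 with array weights. Without KO lesion 3, which gave the count of 7, 1009 genes were called lower. For the interaction the count of 0 lower ranged from 0 to 1 when single arrays were left out. Differences near 0 changed sign in WT. With single arrays left out, Ighv5-16 ranged from -0.0688 to 0.9114, Ighv12-3 from -0.1656 to 0.0542 and Ighv3-3 from -0.0869 to 0.0849. With array weights Ighv5-16 was -0.0023 and Ighv3-3 -0.0417. Ighv3-3 was also -0.0020 with the replicate block, -0.0010 with number series as a random block, -0.0572 with it as a covariate and -0.0572 within the lower series. The motif search planned for promoters was not run, since the promoter table used here holds none of the members. Signal near the floor limits the 26 members not above the array medians.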
